A study of Mus musculus with 30 samples.

Results

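The constitutive proteasome subunit genes encode the proteins from which every cell builds its standard proteasome and the chaperones that help to assemble it. They were taken here as all rows whose Ensembl identifier maps to a symbol of Psma, Psmb, Psmc or Psmd followed by a number, if they averaged 10 counts or more over the 30 tumors, without the inducible genes Psmb8, Psmb9 and Psmb10. Of 32 such rows, 3 were the inducible genes and 29 were members, out of 15926 genes with that mean and 39676 genes listed. No row fell below the mean, and the lowest belonged to Psmd9, with 366 counts. Psma2, Psma8, Psmb1, Psmb5, Psmb11, Psmc1 and Psmc6 were not analysed here.

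The counts came from bulk RNA-seq of whole melanomas grown under the skin of female C57BL/6 mice, whose ages the sample labels do not give, and collected at day 8. All tumors grew from B16-F10 mouse melanoma cells carrying retroviral genes for herpes simplex virus glycoprotein B with a cyan fluorescent protein and for firefly luciferase with puromycin resistance. In addition, B16.IFNα4.gB.luc cells (here IFNα4) and the B16.IFNα9.gB.luc line (here IFNα9) had received a retroviral vector in which the long terminal repeat promoter of murine stem cell virus drives murine IFNα4 or IFNα9 together with enhanced GFP, and B16.GFP.gB.luc cells (here GFP) had received that vector with no interferon. Each type had 10 tumors from its own transduced line, so a line and its interferon cannot be told apart. The labels call the 10 tumors biological replicates, without naming the animals. A whole tumor holds cancer, immune and stromal cells, and in bulk RNA fewer cells of a type and less RNA per cell cannot be told apart.

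The proteasome is a barrel of stacked rings that cuts ubiquitin-tagged proteins into peptides, some of which are displayed on MHC class I. The core particle has outer rings of α subunits, which form the gate, and inner rings of β subunits, of which Psmb5, Psmb6 and Psmb7 cut. The regulatory particle on its end has a base, with a ring of ATPases that unfold substrates, and a lid that removes ubiquitin. Interferons, among them the type I interferons (IFN-I) to which IFNα4 and IFNα9 belong, induce Psmb8, Psmb9 and Psmb10, which replace Psmb5, Psmb6 and Psmb7 in newly built particles to form the immunoproteasome.

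Total counts ran from 14598517 to 19788383 per tumor. Ifna4 had 81 to 188 counts in IFNα4 tumors and Ifna9 had 55 to 148 in IFNα9 tumors, and both genes were at 0 in all other tumors. The 4 melanocyte genes measured (Tyr, Tyrp1, Mitf and Slc45a2) summed to 7608 to 24790.4 CPM (counts per 1000000, after TMM scaling of the libraries) in GFP, 2280.2 to 3783 in IFNα4 and 3505 to 9256 in IFNα9 tumors. GFP tumor 7 stood apart, with the smallest TMM factor, 0.768, the highest melanocyte sum and the lowest sum of 7 leukocyte genes, 251 against at least 401 CPM in the other tumors of its type. Where leaving it out changed a call printed here, or moved a called value by over 1.5 times, the value without it is given.

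In IFNα4 tumors, the standard proteasome genes were lower nearly throughout. Of the 29 members, 26 fell against GFP tumors, 0 rose and 3 (Psma4, Psmb2 and Psmd10) did not pass the test, while 34.1% of all genes tested fell and 31.3% rose. The log2 fold change of every member was below 0, with a median of −0.45, or 26.8% less RNA, against a median of 0.01 over all genes. Psmb3, Psmc4 and Psmb7 fell most, and without GFP tumor 7, described above, Psmc4 (−0.58), Psmb3 (−0.58) and Psmd2 (−0.57) did. A gene passed the test, or was called, with an adjusted p under 0.05 in the quasi-likelihood test of edgeR (Benjamini-Hochberg over the 15926 genes), from which all adjusted p values of single genes below come. Without GFP tumor 7, 22 members fell, 27 were below 0 (not Psma4 and Psmb2), the median was −0.35, and Psma1, Psmd8, Psmd11 and Psmd14 no longer passed the test (adjusted p = 0.0652, 0.253, 0.0733 and 0.0557). The log2 fold change of Psmd11 was then −0.11. Called log2 fold changes that moved by over 1.5 times without it were those of Psma1 (−0.14), Psma5 (−0.18), Psma6 (−0.25), Psmd14 (−0.16), Psmd8 (−0.09), given here without tumor 7. Among the 7327 genes whose mean CPM lay within the members' range, 40.1% fell.

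**Figure D1:**
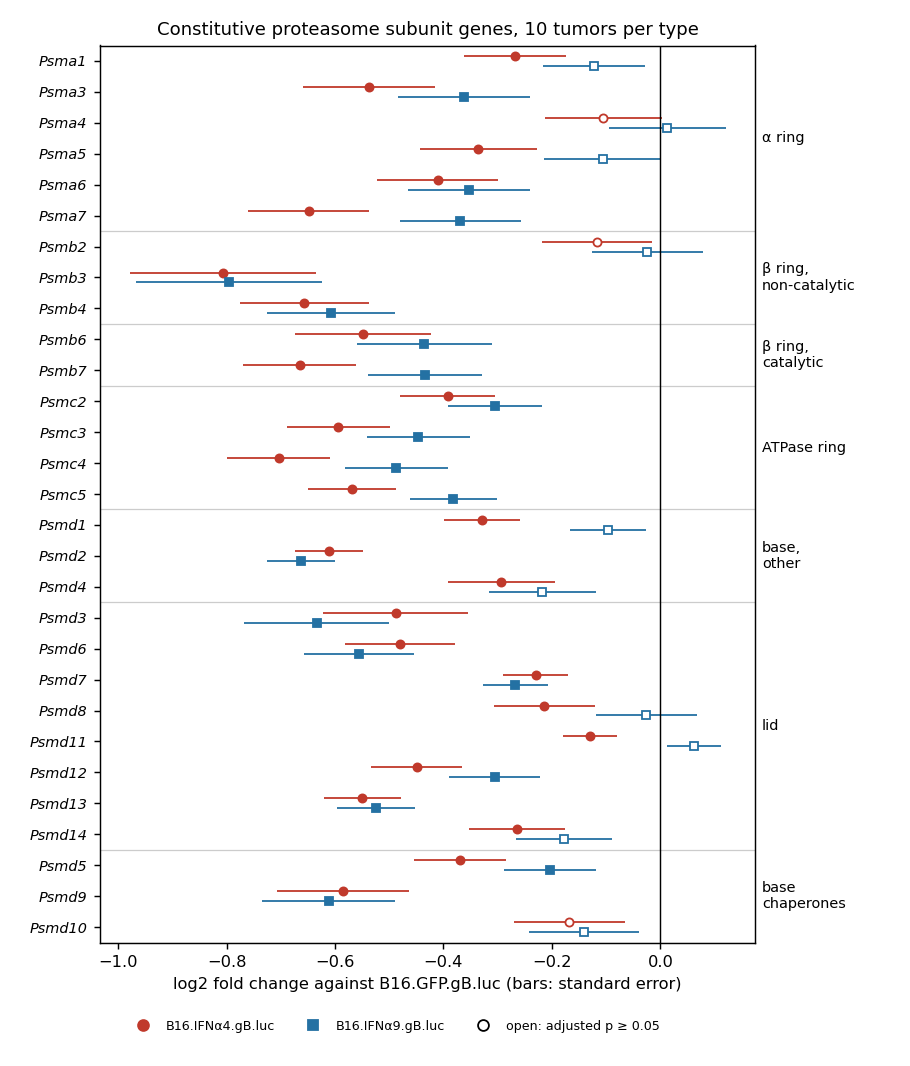
Log2 fold change (horizontal axis, bars: standard error) of each of the 29 constitutive proteasome subunit genes in IFNα4 (red circles) and IFNα9 (blue squares) tumors against GFP tumors, grouped by place in the proteasome, n = 10 tumors per type. Filled symbols passed the test. All 29 red symbols lie left of 0 and 26 are filled, and 19 blue symbols are filled, all left of 0.

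The α ring opens and closes the entrance to the core particle. Of its 6 measured members, 5 fell in IFNα4 tumors, with log2 fold changes of −0.27 for Psma1, −0.54 for Psma3, −0.34 for Psma5, −0.41 for Psma6 and −0.65 for Psma7. Psma4, which did not pass the test, had −0.11 with tumor 7 and 0.04 (adjusted p = 0.702) without it. Psma7 ran from 117 to 319 CPM (median 159.5) in GFP and from 93.4 to 124 CPM (median 112) in IFNα4 tumors. These ranges overlapped, and the highest Psma7 level in GFP tumors was that of tumor 7.

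In the β ring, both catalytic members fell. Psmb6 (ENSMUSG00000018286.6, chr11:70525367-70527858, plus strand), which cuts after acidic residues, ran from 87.7 to 217 CPM (median 133) in GFP tumors, from 71.6 to 115 CPM (median 96.3) in IFNα4 tumors and from 85.3 to 143 CPM (median 102) in IFNα9 tumors. The ranges overlapped, and tumor 7 was again the highest of the GFP tumors. The mean level of Psmb6 was 139.8 ± 39.1 CPM (SD, n = 10) in GFP and 95.6 ± 12.8 CPM in IFNα4 tumors, a log2 fold change of −0.55 ± 0.12 (SE, adjusted p = 0.000352). Psmb7 (ENSMUSG00000026750.6, chr2:38588036-38644087, minus strand), which cuts after basic residues, ran from 108 to 246 CPM (median 119) in GFP tumors and from 78.5 to 96.2 CPM (median 83.2) in IFNα4 tumors. No IFNα4 tumor reached the lowest Psmb7 level of GFP tumors. Its mean level was 134 ± 40.5 CPM in GFP and 84.7 ± 6.22 CPM in IFNα4 tumors, with a log2 fold change of −0.67 ± 0.10 (SE, adjusted p = 2.74e-06).

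Among the non-catalytic β genes, which complete the ring, Psmb3 (ENSMUSG00000069744.7, chr11:97703399-97713500, plus strand) had the largest fall of all members in IFNα4 tumors with GFP tumor 7, and the next to largest, after Psmc4, without it. Its level ran from 65.5 to 239.9 CPM (median 90.5) in GFP and from 45.9 to 75.0 CPM (median 62.2) in IFNα4 tumors. The ranges overlapped, and Psmb3 had the widest spread of all members among GFP tumors, with an SD of 0.561 on the log2 CPM scale. Its mean level was 108 ± 52.1 CPM in GFP and 61.9 ± 11.1 CPM in IFNα4 tumors, with a log2 fold change of −0.81 ± 0.17 (SE, adjusted p = 0.000164), and −0.58 (adjusted p = 0.000225) without tumor 7. Psmb4 fell with a log2 fold change of −0.66. Psmb2 did not pass the test at −0.12, and its value was 0.00 (adjusted p = 0.999) without tumor 7.

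All 4 ATPase genes, which encode the motor that threads proteins into the core, fell in IFNα4 tumors, with log2 fold changes of −0.39 for Psmc2, −0.59 for Psmc3, −0.70 for Psmc4 and −0.57 for Psmc5. Psmc4 (ENSMUSG00000030603.16, chr7:28041707-28050101, minus strand) ran from 131 to 288 CPM (median 176) in GFP and from 103 to 122 CPM (median 109) in IFNα4 tumors, and the types did not overlap. Its mean level was 179.8 ± 43.4 CPM in GFP and 110.3 ± 7.20 CPM in IFNα4 tumors, with a log2 fold change of −0.70 ± 0.10 (SE, adjusted p = 2.41e-07). Without tumor 7 the log2 fold change of Psmc4 was −0.58 (adjusted p = 3.33e-08). Psmc5 also had every IFNα4 tumor below every GFP tumor, and its level ran from 108 to 145 CPM (median 127) in the former and from 149.6 to 248 CPM (median 181) in the latter.

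The other base genes fell as well. Psmd2 (ENSMUSG00000006998.15, chr16:20651652-20663414, plus strand), a scaffold on which ubiquitin receptors and shuttle proteins dock, ran from 307 to 429.9 CPM (median 383) in GFP tumors, from 222 to 267 CPM (median 239.5) in IFNα4 tumors and from 210.3 to 260.5 CPM (median 236) in IFNα9 tumors. Both IFN-I types lay wholly below GFP tumors, and tumor 7 did not stand far from the others of its type. Mean levels of Psmd2 were 372 ± 39.0, 243 ± 16.2 and 235 ± 16.3 CPM in the order GFP, IFNα4 and IFNα9, and its log2 fold change in IFNα4 tumors was −0.61 ± 0.06 (SE, adjusted p = 1.35e-09). Psmd1, the other large base scaffold, fell with a log2 fold change of −0.33, and Psmd4, a ubiquitin receptor, with −0.29, a call that was lost when libraries were scaled by their totals alone.

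**Figure D2:**
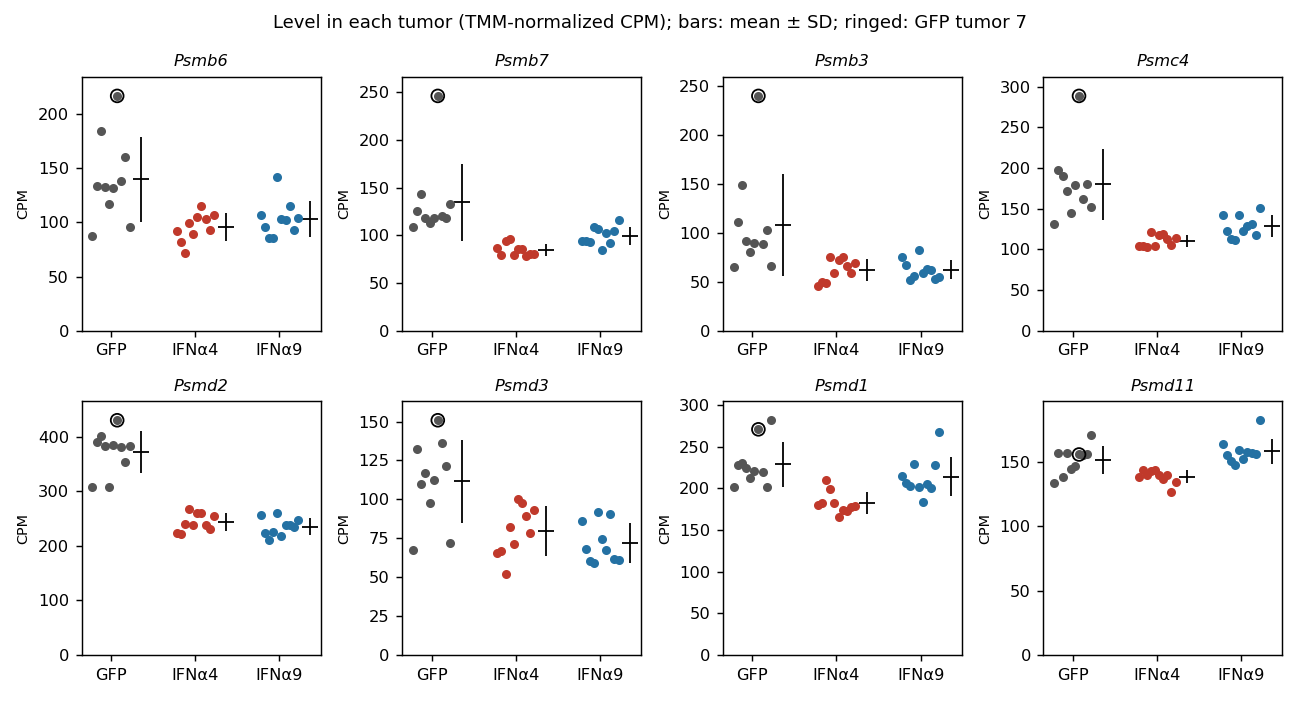
Level in each tumor (vertical axis, TMM-scaled CPM from 0) of 8 members in GFP (grey), IFNα4 (red) and IFNα9 (blue) tumors, with the mean ± SD of 10 tumors beside each set and GFP tumor 7 ringed. Psmd2 separated GFP tumors from both IFN-I types, Psmb7 and Psmc4 separated GFP from IFNα4 tumors, and Psmd11 separated IFNα4 from IFNα9 tumors.

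All 8 measured lid genes fell in IFNα4 tumors, with log2 fold changes of −0.49 for Psmd3, −0.48 for Psmd6, −0.23 for Psmd7, −0.21 for Psmd8, −0.13 for Psmd11, −0.45 for Psmd12, −0.55 for Psmd13 and −0.26 for Psmd14. The calls of Psmd8 and Psmd11 were lost with other size factors, library totals or no filter, and that of Psmd8 also with DESeq2, only the types compared or a replicate block. Psmd14 is the enzyme that cuts ubiquitin chains from substrates, Psmd7 is its partner, and Psmd11 links the lid to the core. Psmd13 had every IFNα4 tumor below every GFP tumor, and its level ran from 69.9 to 90.5 CPM (median 83.1) in the former and from 99.0 to 157 CPM (median 116) in the latter. Psmb7, Psmc4, Psmc5, Psmd2 and Psmd13 were thus the 5 members with no overlap between these types, against 10% of all genes tested that were lower in IFNα4 tumors with no overlap.

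Psmd5, Psmd9 and Psmd10 encode chaperones that hold base ATPases during assembly and then leave. Psmd9 ran from 19.5 to 48.3 CPM (median 27.1) in GFP, from 14.9 to 21.2 CPM (median 19.2) in IFNα4 and from 14.9 to 25.0 CPM (median 17.7) in IFNα9 tumors, and Psmd5 ran from 48.0 to 90.6 CPM (median 56.8), from 39.2 to 51.2 CPM (median 45.7) and from 45.7 to 58.4 CPM (median 51.7) in the same order. The ranges of both genes in GFP tumors overlapped those of the IFN-I types. Psmd9 had mean levels of 28.2 ± 8.19, 18.7 ± 2.05 and 18.4 ± 2.92 CPM, and its log2 fold change was −0.59 ± 0.12 (SE, adjusted p = 0.000129) in IFNα4 and −0.61 ± 0.12 (SE, adjusted p = 0.000116) in IFNα9 tumors. Psmd5 had mean levels of 59.8 ± 12.2, 46.2 ± 3.97 and 51.9 ± 4.10 CPM, with −0.37 ± 0.08 (SE, adjusted p = 0.000382) and −0.20 ± 0.08 (SE, adjusted p = 0.0413). Without tumor 7, the Psmd5 value in IFNα9 tumors was −0.11 (adjusted p = 0.159). Its call in IFNα9 tumors was also lost with library totals, other filters, only the types compared or a replicate block. Psmd10 did not pass the test in either comparison, at −0.17 and −0.14, or −0.03 (adjusted p = 0.757) and −0.01 (adjusted p = 0.899) without tumor 7.

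IFNα9 tumors, compared with the same GFP tumors, also had lower standard proteasome genes, in fewer members. Of the 29 members, 19 fell, 0 rose and 10 did not pass the test (18 lower and 1, Psmd11, higher when libraries were scaled by their totals alone), while 28.9% of all genes fell and 26.9% rose. The median log2 fold change of the members was −0.35, or 21.7% less RNA, against −0.00 over all genes, and 27 of 29 members were below 0. Psmb3, Psmd2 and Psmd3 fell most. Without GFP tumor 7 the count was 18, and 24 of 29 members were below 0, since Psma5 (0.04), Psmb2 (0.08) and Psmd8 (0.09) joined Psma4 and Psmd11 above it. The median was then −0.21, and the called values that moved by over 1.5 times were, without it, those of Psma3 (−0.19), Psma6 (−0.20), Psma7 (−0.22), Psmb7 (−0.29), Psmc2 (−0.19), Psmd5 (−0.11). Psmd5 no longer passed the test. The share that fell among genes in the members' range of mean CPM was 34.2%. This comparison and that of IFNα4 tumors share their controls, so tumor 7 entered both.

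By place, 3 of 6 α ring genes fell in IFNα9 tumors, and the log2 fold changes were −0.12 for Psma1, −0.36 for Psma3, 0.01 for Psma4, −0.11 for Psma5, −0.35 for Psma6 and −0.37 for Psma7, where Psma1, Psma4 and Psma5 did not pass the test. In the β ring, Psmb3, Psmb4, Psmb6 and Psmb7 fell and Psmb2 did not pass, with values of −0.02 for Psmb2, −0.80 for Psmb3, −0.61 for Psmb4, −0.43 for Psmb6 and −0.43 for Psmb7. The catalytic genes had mean levels of 103 ± 16.7 CPM for Psmb6 (adjusted p = 0.00406, SE 0.12) and 99.4 ± 9.63 CPM for Psmb7 (adjusted p = 0.000841, SE 0.10). All 4 ATPase genes fell, with −0.31 for Psmc2, −0.45 for Psmc3, −0.49 for Psmc4 and −0.38 for Psmc5. Of the other base genes, Psmd2 fell and Psmd1 and Psmd4 did not pass the test, with −0.10 for Psmd1, −0.66 for Psmd2 and −0.22 for Psmd4. In the lid, 5 of 8 genes fell and Psmd8, Psmd11 and Psmd14 did not pass, with −0.63 for Psmd3, −0.56 for Psmd6, −0.27 for Psmd7, −0.03 for Psmd8, 0.06 for Psmd11, −0.31 for Psmd12, −0.52 for Psmd13 and −0.18 for Psmd14.

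Psmb3 ran from 51.8 to 82.5 CPM (median 60.4) in IFNα9 tumors, with a mean of 62.4 ± 10.2 CPM. Its log2 fold change against GFP tumors was −0.80 ± 0.17 (SE, adjusted p = 0.000275), and −0.58 (adjusted p = 0.000306) without tumor 7. Psmd2 had −0.66 ± 0.06 (SE, adjusted p = 6.17e-10), with no overlap between the types. Psmd3 (ENSMUSG00000017221.14, chr11:98682554-98695979, plus strand), a lid subunit, ran from 67.6 to 151 CPM (median 115) in GFP, from 51.9 to 100 CPM (median 80.4) in IFNα4 and from 58.8 to 91.8 CPM (median 67.9) in IFNα9 tumors. The ranges overlapped, with GFP tumors 1, 5 and 10 among the IFN-I tumors. Mean levels of Psmd3 were 112 ± 26.7, 79.6 ± 15.8 and 72.0 ± 13.0 CPM, and its log2 fold change in IFNα9 tumors was −0.63 ± 0.13 (SE, adjusted p = 0.000214). Psmd6, another lid gene, ran from 80.8 to 172 CPM (median 93.3) in GFP and from 63.6 to 78.6 CPM (median 70.6) in IFNα9 tumors. Psmd2 and Psmd6 were the 2 members with every IFNα9 tumor below every GFP tumor, against 3.35% of all genes.

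When the IFN-I types were compared with each other, 2 members, Psmd1 and Psmd11, were higher in IFNα9 than in IFNα4 tumors and 0 were lower, against 10.5% of all genes higher and 7.25% lower. The median log2 difference of the members was 0.11, and 24 of 29 were above 0. Of the cell cycle and melanocyte genes described below, 7 of 8 and 3 of 4 were also called higher in IFNα9 tumors (and Pcna, a cell cycle gene, at 0.33 (adjusted p = 0.00378) without GFP tumor 7), and their part in these differences was not tested. Psmd11 (ENSMUSG00000017428.16, chr11:80428615-80473248, plus strand) ran from 127 to 144 CPM (median 139.8) in IFNα4 tumors, from 148 to 183 CPM (median 156) in IFNα9 tumors and from 133 to 171 CPM (median 156) in GFP tumors. Every IFNα9 tumor exceeded every IFNα4 tumor, and GFP tumors overlapped both. Psmd11 was the 1 member higher with no overlap between these types, against 2.08% of all genes. Mean levels of Psmd11 were 139 ± 5.12, 158 ± 9.65 and 152 ± 10.9 CPM in that order, and the log2 difference between the IFN-I types was 0.19 ± 0.05 (SE, adjusted p = 0.00734).

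Psmd1 (ENSMUSG00000026229.17, chr1:86064387-86139151, plus strand) ran from 166 to 210.3 CPM (median 179) in IFNα4, from 183 to 268 CPM (median 206) in IFNα9 and from 201 to 282 CPM (median 223) in GFP tumors, with overlap between all types. Mean levels of Psmd1 were 182 ± 13.2, 214 ± 23.3 and 229 ± 27.0 CPM in that order, with a log2 difference between the IFN-I types of 0.23 ± 0.07 (SE, adjusted p = 0.0187). Without IFNα9 tumor 10, the highest for both genes, Psmd11 alone passed. Without GFP tumor 7, which enters this comparison through the shared estimate of the spread, the scaling and the filter, 6 members were higher in IFNα9 tumors: Psmd1 and Psmd11, and also Psma5 at 0.22 (adjusted p = 0.0239), Psma7 at 0.27 (adjusted p = 0.00542), Psmb7 at 0.22 (adjusted p = 0.00964) and Psmc4 at 0.20 (adjusted p = 0.0295). With no filter on low counts 0 members passed, and with only the 20 tumors compared 8 passed. The remaining log2 differences were 0.15 for Psma1, 0.18 for Psma3, 0.12 for Psma4, 0.23 for Psma5, 0.06 for Psma6 and 0.28 for Psma7 in the α ring, 0.09 for Psmb2, 0.01 for Psmb3, 0.05 for Psmb4, 0.11 for Psmb6 and 0.23 for Psmb7 in the β ring and 0.09 for Psmc2, 0.15 for Psmc3, 0.22 for Psmc4 and 0.19 for Psmc5 in the ATPase ring. In the rest of the regulatory particle and the chaperones they were −0.05 for Psmd2, −0.15 for Psmd3, 0.08 for Psmd4, 0.17 for Psmd5, −0.08 for Psmd6, −0.04 for Psmd7, 0.19 for Psmd8, −0.03 for Psmd9, 0.03 for Psmd10, 0.14 for Psmd12, 0.03 for Psmd13 and 0.09 for Psmd14.

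The inducible catalytic subunits, which take the place of constitutive ones, were far higher relative to them in IFN-I tumors. These ratios were taken within each tumor and do not depend on library scaling, but they can depend on the mix of cells. The leukocyte and NK cell genes described below also rose in both IFN-I types, and their part in these ratios was not tested. Psmb9, the inducible partner of Psmb6, ran from 7.50 to 24.7 CPM (median 16.9) in GFP, from 61.0 to 97.2 CPM (median 72.9) in IFNα4 and from 43.2 to 130.2 CPM (median 69.2) in IFNα9 tumors. Every IFN-I tumor exceeded every GFP tumor. The log2 ratio of Psmb9 to Psmb6 reads was −3.11 ± 0.70 (SD, n = 10) in GFP, −0.34 ± 0.20 in IFNα4 and −0.49 ± 0.51 in IFNα9 tumors. The ratio was 6.80-fold higher in IFNα4 and 6.15-fold higher in IFNα9 than in GFP tumors (two-sided permutation test, 100000 resamples, adjusted p = 0.00012 for each over 6 tests). Neither IFN-I type overlapped GFP tumors.

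Psmb10, the inducible partner of Psmb7, ran from 9.61 to 37.3 CPM (median 26.1) in GFP, from 29.2 to 68.2 CPM (median 44.5) in IFNα4 and from 24.4 to 93.0 CPM (median 42.1) in IFNα9 tumors, with overlap. The log2 ratio of Psmb10 to Psmb7 reads was −2.47 ± 0.61 in GFP, −0.86 ± 0.42 in IFNα4 and −1.18 ± 0.64 in IFNα9 tumors. This ratio was 3.05-fold higher in IFNα4 tumors, with no overlap (permutation test, adjusted p = 0.00012), and 2.44-fold higher in IFNα9 tumors, with overlap (permutation test, adjusted p = 0.00024). Between the IFN-I types, the log2 difference was −0.14 ± 0.17 (SE) for Psmb9 to Psmb6 and −0.32 ± 0.24 for Psmb10 to Psmb7, and neither passed the permutation test (adjusted p = 0.418 and 0.235).

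**Figure D3:**
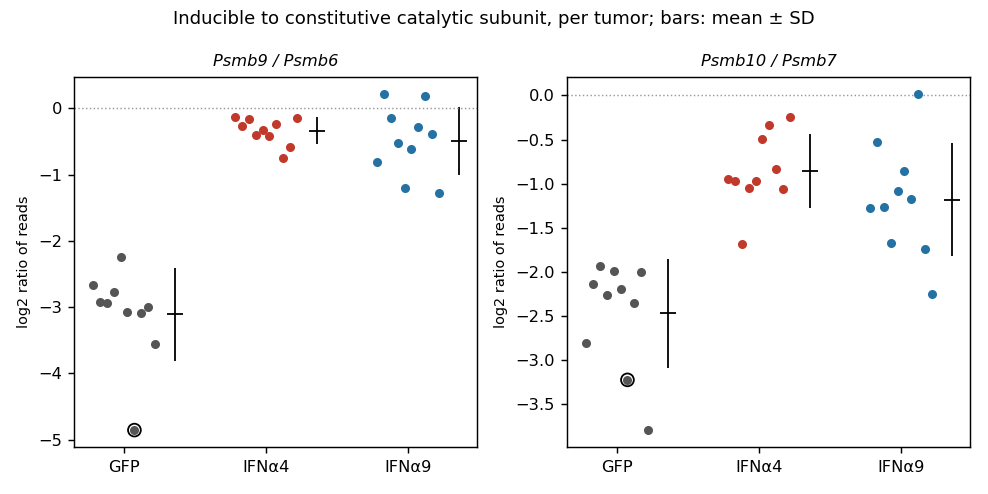
Log2 ratio of reads (vertical axis) of Psmb9 to Psmb6 (left) and Psmb10 to Psmb7 (right) in each GFP (grey), IFNα4 (red) and IFNα9 (blue) tumor, with the mean ± SD of 10 tumors beside each set, a dotted line at equal reads and GFP tumor 7 ringed. All IFN-I tumors lie above all GFP tumors on the left, and on the right IFNα4 tumors do while IFNα9 tumors overlap them.

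Per kilobase of the principal transcript, mean Psmb6 exceeded mean Psmb9 and mean Psmb7 exceeded mean Psmb10 in all types. Psmb8, whose standard partner was not analysed here, had 21.3 ± 7.53 CPM per kilobase in GFP, 76.3 ± 15.0 in IFNα4 and 58.5 ± 18.3 in IFNα9 tumors. Psmb7, which Psmb8 does not replace, had 115.8 ± 34.9, 73.0 ± 5.36 and 85.7 ± 8.30 in the same order. Psmb6 had 175 ± 49.0 CPM per kilobase (SD, n = 10) in GFP, 119.8 ± 16.1 in IFNα4 and 129.5 ± 20.9 in IFNα9 tumors, beside 12.4 ± 4.31, 56.0 ± 9.73 and 56.6 ± 19.2 for Psmb9. Psmb9 made up 2.00 to 11.1 (median 7.02) percent of the Psmb9 and Psmb6 level per kilobase in GFP, 25.9 to 35.1 (median 32.4) percent in IFNα4 and 19.6 to 40.7 (median 30.1) percent in IFNα9 tumors. The lowest share in GFP tumors was that of tumor 7. For Psmb10 of Psmb10 and Psmb7 the share was 6.00 to 18.8 (median 15.9), 21.6 to 42.7 (median 31.3) and 15.7 to 47.2 (median 27.6) percent in the same order. In both pairs the inducible share stayed below that of the standard partner in every tumor.

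Members differed widely in level per kilobase. In GFP tumors the chaperones Psmd9, Psmd5 and Psmd10 were lowest, at 10.8 ± 3.15, 13.6 ± 2.78 and 19.4 ± 5.21 CPM per kilobase, and all 26 structural subunit genes lay above them, from 52.0 ± 12.4 for Psmd3 to 196 ± 62.7 for Psma6. Psma6, Psma7 (189.8 ± 60.4), Psmd8 (187 ± 44.3), Psma4 (182 ± 51.7) and Psmb6 were the 5 highest, and their levels lay within an SD of each other. In IFNα4 tumors Psma4 (169 ± 20.2) and Psmd8 (161 ± 10.1) were highest. The summed CPM of the core particle genes divided by that of the regulatory particle genes was 0.582 to 0.872 (median 0.629) in GFP, 0.614 to 0.702 (median 0.655) in IFNα4 and 0.641 to 0.728 (median 0.680) in IFNα9 tumors, and its top value in GFP tumors was that of tumor 7.

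Members that moved together can be set beside the sequence at their starts. RefSeq windows of 300 bases (GRCm38.p6, 250 bases before to 50 after the gene start) matched 24 of the 29 members, not Psmb2, Psmb7, Psmc3, Psmd3 or Psmd7. Both strands were searched for 4 motifs. The antioxidant response element, bound by NRF1 and NRF2, was TGACNNNGC. The interferon-stimulated response element was GAAA and GAAA with any bases NN between them, and the gamma-activated sequence was TTCNNNGAA. The last was CCAAT. TGACNNNGC was present in 3 of 24 members (Psmb6, Psmd9 and Psmd12), or 12.5%, against 14% of all 27025 genes with a window. The interferon-stimulated response element was in 3 (Psmb3, Psmd4 and Psmd9), or 12.5%, against 3.99% of genes, TTCNNNGAA in 1 (Psmd2), or 4.17%, against 9.55%, and CCAAT in 9 (Psma1, Psma3, Psma6, Psma7, Psmb3, Psmc2, Psmd4, Psmd10 and Psmd14), or 37.5%, against 41.1%. No match of one motif overlapped a match of another.

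The windows of Psmb6, Psmd9 and Psmd12 are shown because they hold TGACNNNGC, and that of Psmb9 because its product takes the place of Psmb6. The Psmb9 window holds neither interferon motif, but it lies inside the counted gene. On the minus strand that gene starts at chr17:34187764, and the sequence there was not searched. Capitals mark the letters matched by any of the searched motifs, which in Psmb9 is a CCAAT on the opposite strand and in Psmd9 includes the interferon-stimulated response element. The windows lie at chr11:70525107-70525406 on the plus strand, chr5:123227940-123228239 on the plus strand, chr11:107479278-107479577 on the plus strand and chr17:34187281-34187580 on the minus strand, and each is written 5′ to 3′ along its gene.
Psmb6: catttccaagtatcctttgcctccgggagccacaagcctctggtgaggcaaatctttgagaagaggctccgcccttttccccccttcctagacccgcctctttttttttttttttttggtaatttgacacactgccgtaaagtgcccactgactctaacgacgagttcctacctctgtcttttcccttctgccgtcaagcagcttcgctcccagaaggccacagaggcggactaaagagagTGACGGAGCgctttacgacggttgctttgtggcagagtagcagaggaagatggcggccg
Psmd9: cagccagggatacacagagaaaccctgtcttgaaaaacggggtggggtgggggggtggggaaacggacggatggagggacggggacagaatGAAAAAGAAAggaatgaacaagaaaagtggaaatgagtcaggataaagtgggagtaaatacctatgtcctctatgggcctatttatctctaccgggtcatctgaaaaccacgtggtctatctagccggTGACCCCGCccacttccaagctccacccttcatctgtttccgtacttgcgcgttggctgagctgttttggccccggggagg
Psmd12: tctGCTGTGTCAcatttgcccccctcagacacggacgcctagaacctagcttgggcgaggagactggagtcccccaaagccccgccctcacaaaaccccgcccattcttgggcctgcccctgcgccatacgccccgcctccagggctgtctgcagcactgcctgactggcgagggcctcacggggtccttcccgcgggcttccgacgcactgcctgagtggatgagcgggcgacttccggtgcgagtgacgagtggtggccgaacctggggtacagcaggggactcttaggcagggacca
Psmb9: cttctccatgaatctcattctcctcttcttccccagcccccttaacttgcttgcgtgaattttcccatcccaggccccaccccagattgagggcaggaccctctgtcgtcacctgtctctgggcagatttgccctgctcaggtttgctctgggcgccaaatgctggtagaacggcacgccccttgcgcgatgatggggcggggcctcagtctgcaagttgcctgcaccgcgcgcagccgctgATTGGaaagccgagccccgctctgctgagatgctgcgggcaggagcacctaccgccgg
The TGACNNNGC match started 9 bases before the RefSeq start in Psmb6, 31 before in Psmd9 and 247 before in Psmd12, where it lies on the opposite strand. A match describes letters in these windows and not binding.

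The other genes of the pathway did not all move with the members. The inducible catalytic genes Psmb8, Psmb9 and Psmb10 rose in both IFN-I types, with log2 fold changes of 1.84 for Psmb8, 2.17 for Psmb9 and 0.95 for Psmb10 in IFNα4 and 1.45 for Psmb8, 2.19 for Psmb9 and 0.90 for Psmb10 in IFNα9 tumors. Of the 4 activator genes, which encode alternative caps for the core, the interferon-induced Psme1 and Psme2 rose, with 1.24 and 1.17 in IFNα4 and 1.51 and 1.22 in IFNα9 tumors. The nuclear activator Psme3 fell, with −0.57 and −0.39, and Psme4 did not pass the test, with 0.07 and 0.09. All 4 measured core assembly genes fell in both types, with −1.10 for Psmg1, −0.88 for Psmg3, −0.63 for Psmg4 and −0.45 for Pomp in IFNα4 and −0.81 for Psmg1, −0.95 for Psmg3, −0.45 for Psmg4 and −0.44 for Pomp in IFNα9 tumors. Pomp in IFNα4 tumors was at −0.30 (adjusted p = 0.000215) without GFP tumor 7. Psmg1, Psmg3 and Psmg4 encode chaperones of the α ring and Pomp encodes the maturation factor of the β ring.

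Of the 6 proteasome-associated genes, 5 fell in IFNα4 tumors and 3 in IFNα9 tumors. Adrm1, a ubiquitin receptor, had −0.41 and −0.56, Sem1, a small lid subunit, −0.81 and −0.49, and the deubiquitinase Uchl5 −0.48 and −0.28, all called in both types. Without GFP tumor 7, Uchl5 was no longer called in IFNα9 tumors, at −0.20 (adjusted p = 0.0918), and Sem1 was at −0.27 (adjusted p = 0.00977) there. The deubiquitinase Usp14 and the inhibitor Psmf1 fell in IFNα4 tumors, with −0.43 and −0.21, and did not pass in IFNα9 tumors, with −0.19 and −0.15. Psmf1 in IFNα4 tumors was not called without GFP tumor 7, at −0.14 (adjusted p = 0.123). Ecpas passed in neither, with 0.02 and 0.07.

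The genes of the NRF1 pathway, through which cells raise proteasome gene transcription, listed together with Nfe2l2, which encodes the related factor NRF2, were in no case called lower than in GFP tumors. In IFNα4 tumors 5 of 6 rose, with log2 fold changes of 0.40 for Nfe2l1, 0.23 for Nfe2l2, 0.39 for Ddi2, 0.21 for Ngly1 and 0.51 for Mafk, and Mafg did not pass at 0.01. Nfe2l1 encodes NRF1 itself, Ddi2 the protease and Ngly1 the glycosidase that process it, and Mafk and Mafg small Maf partners. Without Nfe2l2, 4 of 5 rose in IFNα4 tumors and 1 of 5 in IFNα9 tumors. In IFNα9 tumors 2 of 6 rose, Nfe2l2 (0.31) and Ddi2 (0.28), and Nfe2l1, Ngly1, Mafg and Mafk did not pass, with 0.08 for Nfe2l1, 0.16 for Ngly1, −0.05 for Mafg and −0.02 for Mafk. Ngly1 was also called higher in IFNα9 tumors without GFP tumor 7, at 0.18 (adjusted p = 0.04). Nfe2l1 ran from 199 to 295 CPM (median 248) in GFP, from 279.8 to 379.6 CPM (median 337) in IFNα4 and from 202 to 346 CPM (median 269) in IFNα9 tumors, with overlap between all types. Between the IFN-I types, Nfe2l1 and Mafk were lower in IFNα9 tumors, with log2 differences of −0.31 (adjusted p = 0.0118) and −0.53 (adjusted p = 0.000912).

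Of 4 ubiquitin supply genes reported, 2 fell in IFNα4 tumors, and 1 fell and 1 rose in IFNα9 tumors. Rps27a, which encodes ubiquitin fused to a ribosomal protein, fell in both types, with −0.81 in IFNα4 and −0.70 in IFNα9 tumors, and the polyubiquitin gene Ubb passed in neither, with −0.26 and −0.14. Of the ubiquitin-activating enzymes, Uba1 fell in IFNα4 tumors (−0.34) and was not called in IFNα9 tumors (−0.15), and Uba6 rose in IFNα9 tumors (0.33) and was not called in IFNα4 tumors (0.18). Of 6 genes reported that deliver ubiquitinated proteins, 4 fell in each type: the shuttle factors Rad23b (−0.52 and −0.29 in IFNα4 and IFNα9) and Ubqln4 (−0.45 and −0.32), and the segregase Vcp (−0.36 and −0.27) with its cofactor Nploc4 (−0.32 and −0.16). Ubqln2 and Ufd1 passed in neither, with −0.01 and 0.05 in IFNα4 and −0.21 and −0.09 in IFNα9 tumors. Without GFP tumor 7, Nploc4 in IFNα9 tumors was not called, at −0.12 (adjusted p = 0.0882), and Ubqln2 was called lower there, at −0.24 (adjusted p = 0.0446).

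**Figure D4:**
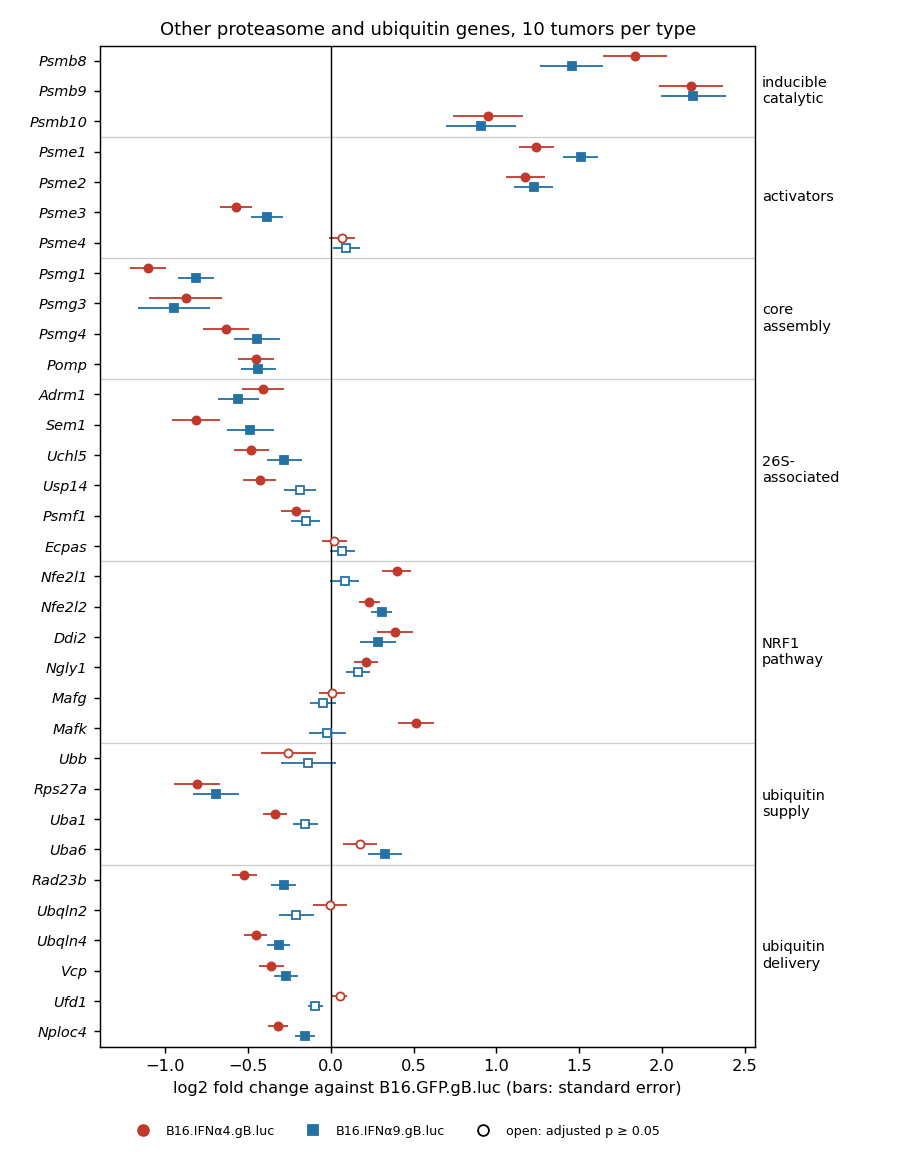
Log2 fold change (horizontal axis, bars: standard error) of 33 proteasome and ubiquitin genes outside the constitutive subunits in IFNα4 (red circles) and IFNα9 (blue squares) tumors against GFP tumors, n = 10 per type, with filled symbols for those that passed the test. The inducible catalytic genes, Psme1 and Psme2 lie far right of 0 and the core assembly genes left of it.

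Within the IFN-I types, the median spread of the members was below that of all genes in their range of mean CPM. Those genes were not matched to the level of each member, and the difference was not tested. The median SD of a member on the log2 CPM scale was 0.141 in IFNα4 and 0.136 in IFNα9 tumors, beside 0.172 and 0.198 for genes in the same range of mean CPM. It was 0.310 in GFP tumors (0.305 for genes in that range) and 0.167 without tumor 7 (0.234). Psmd7 had the smallest SD of all members in both IFN-I types, 0.0472 and 0.0512, and Psmd3 the largest, 0.302 and 0.251. The mean correlation between pairs of members across the 10 tumors of a type, which share libraries and scaling, was 0.70 in GFP tumors (0.43 without tumor 7), 0.16 in IFNα4 and 0.28 in IFNα9 tumors. Over all genes tested it was 0.00, 0.00 and 0.00, but library scaling holds that mean near 0. It is therefore no baseline for a group of related genes, and no other such group was compared. Psmd11 had the lowest mean correlation with the other members in GFP tumors, 0.24, and Psmc2 the highest, 0.82.

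As a sum, the 29 members had 3789 to 7289.9 (median 4481) CPM in GFP, 3325 to 3773 (median 3487) in IFNα4 and 3437 to 4137 (median 3858) in IFNα9 tumors. No IFNα4 tumor reached the lowest GFP tumor, and IFNα9 tumors overlapped both. Tumor 7 held the top value of GFP tumors, and the next had 5107 CPM. As a share of all counts, which amounts to scaling by library totals alone, the members had 0.415 to 0.559 (median 0.429) percent in GFP, 0.336 to 0.385 (median 0.353) percent in IFNα4 and 0.357 to 0.420 (median 0.389) percent in IFNα9 tumors.

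Markers of cell types and of the cell cycle moved between the same groups. All 8 cell cycle genes fell in IFNα4 and 7 of 8 in IFNα9 tumors, and their sum was 1393 to 3217 CPM in GFP, 620.4 to 791 in IFNα4 and 851 to 1658 in IFNα9 tumors. All 4 melanocyte genes fell in both. All 7 leukocyte genes rose in both, with sums of 251 to 841, 1156 to 2325 and 836 to 1605 CPM in the same order. The 5 NK cell genes rose in both, with sums of 3.48 to 24.4, 83.5 to 284 and 48.5 to 183 CPM, and of 7 T cell genes 7 rose in IFNα4 and 6 in IFNα9 tumors, with sums of 4.73 to 62.2, 72.2 to 143 and 26.5 to 97.9 CPM. The part of all these markers in the lower member levels, and in the higher inducible genes and ratios, was not tested. Between the IFN-I types, 1 of 7 leukocyte and 2 of 5 NK cell genes were lower in IFNα9 tumors, and 0 of 7 T cell genes were called. Without GFP tumor 7, the leukocyte genes Ptprc (−0.53 (adjusted p = 0.0295)), Coro1a (−0.53 (adjusted p = 0.0178)) and Fcer1g (−0.44 (adjusted p = 0.0272)), the T cell gene Trbc2 (−0.53 (adjusted p = 0.0166)) and the NK cell gene Klrk1 (−0.49 (adjusted p = 0.045)) were also called lower there.

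Other marker lists moved less evenly. Of 6 macrophage genes 1 rose and 2 fell in IFNα4 tumors and 1 rose in IFNα9 tumors, with sums of 431 to 1943, 884 to 1534 and 908 to 1738 CPM. When GFP tumor 7 was left out, Csf1r (−0.38 (adjusted p = 0.00994)), C1qa (−0.52 (adjusted p = 0.0153)) and C1qb (−0.44 (adjusted p = 0.0175)) were also called lower in IFNα4 tumors, and Cd68 was no longer called higher in IFNα9 tumors, at 0.35 (adjusted p = 0.0617). Of 4 fibroblast genes 1 rose in each, with sums of 2799.9 to 12679, 6972 to 12526 and 7008 to 11748 CPM. Of 5 endothelial genes 3 fell and 1 rose in IFNα4 and 3 fell in IFNα9 tumors, with sums of 162 to 409, 231 to 334 and 121 to 209.7 CPM. Of 3 keratinocyte genes 2 rose in IFNα4 and 0 in IFNα9 tumors, with sums of 679 to 5190.0, 4305 to 7193 and 1236 to 5914 CPM. Of 4 muscle genes 1 rose in IFNα4 and 2 fell in IFNα9 tumors, with sums of 2643 to 13321, 3366 to 11663 and 1326 to 9861 CPM, and without GFP tumor 7 Myh4 was also called lower in IFNα9 tumors, at −0.73 (adjusted p = 0.0423). Between the IFN-I types, 3 of 5 endothelial and 3 of 4 muscle genes were lower and 1 of 6 macrophage genes was higher in IFNα9 tumors, and no fibroblast or keratinocyte gene was called.

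**Figure D5:**
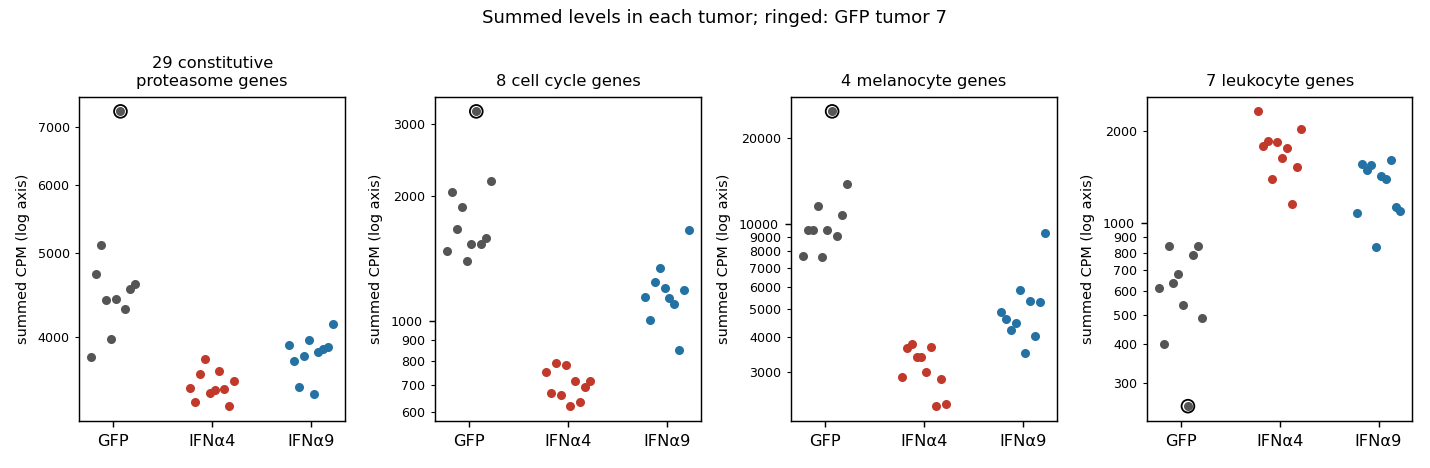
Summed CPM in each tumor (vertical log axes) of the 29 members and of the cell cycle, melanocyte and leukocyte genes in GFP (grey), IFNα4 (red) and IFNα9 (blue) tumors, with GFP tumor 7 ringed. Tumor 7 holds the highest member, cell cycle and melanocyte sums and the lowest leukocyte sum.

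Some members share sequence with other annotated genes, between which the counting could split reads. Of all stretches of 50 bases in their transcripts, 49.1% were also in another gene for Psma5, 17.8% for Psmd2, 17.8% for Psmb3, 15.4% for Psma3 and 11.6% for Psma4, so their levels are uncertain. The gene Gm13835, which shares the most with Psma3, had a mean of 1980.0 counts, Gm5422, for Psmd2, 1003, Gm6542, for Psma4, 786, and Gm8394, for Psma5, 112. Of the 24 members with at most 10% of shared stretches, 22 fell in IFNα4 and 16 in IFNα9 tumors. Outside the members, Ubb (48.1%), Vcp (40.5%), Psme2 (28.3%), Adrm1 (25.7%), Rps27a (20.9%) and Ddi2 (17.9%) are uncertain in the same way.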

How the data were processed

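Bulk RNA-seq counts of 30 whole tumors, 10 per tumor type, were analysed. The authors prepared stranded mRNA libraries, sequenced single-end reads of 50 bases, checked them with FastQC (version 0.11.3), aligned them with HISAT2 (version 2.0.4) and counted reads per gene. The deposited values are counts, whole numbers with no normalization. The study's methods name the genome as mm11 and the submitters' processing notes as mm10. Neither the annotation version nor the counting mode, strand setting or treatment of multiply aligned reads is given in the sources used here, so overlapping and antisense genes are uncertain. Of 39676 identifiers, 39495 were found in GENCODE M21 (GRCm38), 36719 in the same version, which gave symbols, coordinates and the principal transcript lengths, and 181 were not.

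Groups and replicate numbers came from the sample labels. Genes averaging 10 counts or more (15926) entered a quasi-likelihood model of the 30 tumors in edgeR 4.0.16 (R 4.3.3) after TMM scaling, with Benjamini-Hochberg adjustment over all genes tested and a threshold of 0.05. A prior count of 2 was used for log2 CPM, and the SE of a fold change was derived from its F value. Ratios of inducible to constitutive genes were taken per tumor from counts with 0.5 added and compared by two-sided permutation tests (100000 resamples, smallest possible p 2e-05, scipy 1.17.1), adjusted over 6 tests. Another ratio, of Psmb8 to Psmb5, was planned and not computed, because Psmb5 is not analysed here. Library totals ran from 14598517 to 19788383 counts, and the lowest member averaged 366 counts per tumor. Deviations of same-numbered tumors from their type means had median correlations of −0.03, −0.10 and −0.01 over the 3 pairs of types. The highest values were 0.23, 0.30 and 0.10 in the same order. Pairing by number was thus not seen, but these correlations cannot exclude it. Lists are described by counts and medians and no gene set was tested. Some genes of the ubiquitin lists are not reported here.

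The members and all lists were chosen with earlier results of these data known. Every member is named with its log2 fold change. Levels, SE and adjusted p are given for the catalytic genes, for up to 3 called members with the largest rise and 3 with the largest fall in each comparison, and for the chaperones where called. Psma7, Psmc5, Psmd6 and Psmd13, and the promoters and motifs shown, were chosen after their values were seen. The fit was tested on simulated data. Alternatives were other size factors, library totals, DESeq2 1.42.0, other filters, only the types compared, a replicate block and each tumor left out in turn. Plots were drawn with matplotlib 3.10.9.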

Additional observations from a re-analysis of the deposited data

Results flagged for a closer look

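Values far from the rest of their type were looked for in 96 sets of 10 tumors, of which about 4.8 would be found by chance (1 in 20), and 17 were found. Of these, 15 lay in GFP tumor 7. It had the highest log2 CPM of its type, apart from the other 9 tumors, for 13 members: Psma1 at 8.325, Psma3 at 9.079, Psma4 at 8.526, Psma5 at 7.779, Psma6 at 8.566, Psma7 at 8.318, Psmb7 at 7.944, Psmc2 at 8.425, Psmc4 at 8.173, Psmd5 at 6.503, Psmd6 at 7.43, Psmd8 at 8.872 and Psmd10 at 5.593. These include all 6 measured α ring genes. Its member sum stood apart at 7290 CPM, against at most 5107 CPM in the others, and its log2 ratio of Psmb9 to Psmb6 was the lowest, at −4.847 against at least −3.54. The same tumor had the highest cell cycle and melanocyte sums and the lowest leukocyte, macrophage, T cell, NK cell, fibroblast, endothelial and keratinocyte sums of its type, and their part in its member levels was not tested.

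The other far values were single genes. Psma5 was highest in IFNα4 tumor 3, at 6.84 on the log2 CPM scale against at most 6.66 in the others. That tumor also had the highest cell cycle (791 CPM) and melanocyte (3783 CPM) sums and the lowest macrophage (884 CPM), keratinocyte and inducible proteasome (181 CPM) sums of its type, and their part in its Psma5 level was not tested. Psmd11 was highest in IFNα9 tumor 10, at 7.513 against at most 7.36. IFNα9 tumor 10 also had the highest cell cycle (1658 CPM) and melanocyte (9256 CPM) sums and the highest member sum of its type, and the lowest macrophage (908 CPM), T cell (26.5 CPM), endothelial, keratinocyte, muscle and inducible proteasome (113 CPM) sums. Their part in its Psmd11 level was not tested.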

How the results depend on the processing

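The members called lower in IFNα4 tumors numbered 23 to 26 and in IFNα9 tumors 18 or 19 under other size factors, library totals, DESeq2, other filters, only the types compared and a replicate block, and 22 to 26 and 18 to 20 with each tumor left out. Leaving out GFP tumor 7 gave the smallest median falls, −0.35 and −0.21. Library totals raised the median over all genes from −0.00 to 0.10 in IFNα9 tumors and gave a member median of −0.22, 18 members lower and 1 (Psmd11) higher. They also put Psma1 (0.0021), Psma5 (0.022), Psmb2 (0.11), Psmd1 (0.011) and Psmd8 (0.10) above 0. With each tumor left out, log2 fold changes near 0 crossed it: in IFNα4 tumors Psma4 (−0.14 to 0.037) and Psmb2 (−0.17 to 0.00024), in IFNα9 tumors Psma4 (−0.021 to 0.14), Psma5 (−0.14 to 0.036), Psmb2 (−0.072 to 0.080) and Psmd8 (−0.069 to 0.087), and between the IFN-I types Psmb3 (−0.029 to 0.061), Psmd9 (−0.060 to 0.027) and Psmd13 (−2.6e-05 to 0.059). Between the IFN-I types, 9 members were called with library totals, 8 with only the 20 tumors compared, 0 with no filter (against 2, with more genes tested) and 1 to 6 with each tumor left out, 1 without IFNα9 tumor 10 and 6 without GFP tumor 7. The cause of the other shifts was not tested. Some calls rested on single tumors or settings. In IFNα4 tumors, Psmd8 (−0.26 to −0.091 with each tumor left out) was not called without GFP tumor 3, 6, 7 or 9 or IFNα4 tumor 2, 3, 4, 8, 9 or 10, nor with other size factors, library totals, DESeq2, no filter, only the types compared or the replicate block. Psmd11 (−0.16 to −0.11) was not called without GFP tumor 7 or 10 or with other size factors, library totals or no filter, and Psmd4 was not called with library totals. In IFNα9 tumors, Psmd5 (−0.23 to −0.11) was not called without GFP tumor 2, 3 or 7 or IFNα9 tumor 1, 2, 3, 4, 5, 6 or 8, nor with library totals, other filters, only the types compared or the replicate block, and Psmd4 (−0.26 to −0.18) was called without GFP tumor 1 or 10, IFNα4 tumor 3 or IFNα9 tumor 5 or 8. The log2 difference of the Psmb10 to Psmb7 ratio between these types ran from −0.46 to −0.21 with each tumor left out, and was −0.46 without IFNα9 tumor 8 (permutation test, unadjusted p = 0.048). The replicate block gave 25, 18 and 2 members called and changed no call on the ratios. The ratio of Psmb8 to Psmb5 was not run. Counting error weighs most on Psmd9, the member with the fewest counts, 366 on average.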
